A study of Mus musculus with 9 samples.

Results

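The expression of 40 genes of sterol and fatty acid metabolism was examined in macrophages that expressed GFP alone or GFP fused to TTP or to its mutant TTP-AA. The genes were taken by symbol from a list of lipid genes, without use of their measured values, although earlier results of these data were known. All 40 were found among the 25494 genes of the expression table. By role, 16 genes encode enzymes of cholesterol synthesis. The SREBP transcription factors and the proteins that escort them, hold them in check or respond to them make up 6. Another 10 are listed under fatty acid synthesis, among them Lpin1, a phosphatidate phosphatase. A further 5 belong to the LXR receptors and cholesterol efflux, and 3 act in cholesterol esterification or export from lysosomes.

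Tristetraprolin (TTP, gene Zfp36) binds AU-rich elements in mRNA 3′ ends and promotes mRNA decay, and the kinase MK2 inactivates it by phosphorylation. TTP-AA carries S52A and S178A, so that MK2 cannot phosphorylate these serines. All cells were TTP-deficient mouse bone marrow-derived macrophages (BMDMs) grown in M-CSF, immortalized with hcmyc and hRasG12V, positive for CD11b and F4/80, and transduced with an all-in-one tet-inducible vector. The vector encoded GFP, the fusion GFP-TTP or the fusion GFP-TTP-AA, and the groups are named GFP, TTP and TTP-AA hereafter. Every culture received doxycycline at 1 µg/ml for 6 h in total and LPS at 1 µg/ml for 1 h, and rRNA-depleted total RNA was sequenced in 3 libraries per group, 9 in all. Each group is a separately transduced population of one immortalized line, and no library without doxycycline or without LPS was analysed, so differences between the populations that were there before induction cannot be told apart from effects of the transgenes. The labels call the 3 libraries of a group biological replicates.

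Cholesterol synthesis is governed by end-product feedback. When sterol is scarce, SCAP escorts the SREBP precursors from the endoplasmic reticulum to the Golgi, where they are cut into active transcription factors; when sterol is plentiful, INSIG1 and INSIG2 retain them. SREBP-2 chiefly drives the enzymes of sterol synthesis and SREBP-1 those of fatty acid synthesis, often together with NF-Y, a factor that binds the CCAAT box. Oxysterols activate the LXR receptors, LXRα (Nr1h3) and LXRβ (Nr1h2), which induce the efflux pumps ABCA1 and ABCG1 and the ubiquitin ligase MYLIP, which lowers cholesterol uptake. Macrophages can take up large amounts of cholesterol.

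The table holds fitted means from the authors' model and not measured values: each library's value is the product of a library factor, a term of its replicate number and a term of its group. The 3 libraries of a group therefore show no scatter of their own, no test between groups could be made, and whether a group difference exceeds the spread between replicates could not be determined. A difference between groups is the same in every replicate number by construction, and whether the libraries of 2 groups overlap tells only how large the group term of a gene is beside its replicate-number term. Sums over genes ranged from 21482954 to 102613526 per library. Values were scaled between libraries by the median ratio and are called scaled values here; differences are on the log2 scale, and their 95% intervals cover counting error only. A difference of at least 0.5, which is 1.41-fold, was set as the size worth naming. All 40 genes passed a minimum mean of 10, as did 13028 genes of the whole table. The authors' mean of the measured counts over the 9 libraries, set relative to the fitted mean and to the median of all genes, lay between 0.998 and 1.04 for the 40 genes. The Zfp36 row, to which both the transgene and the disrupted locus can contribute reads, averaged 1353 in GFP, 1378 in TTP and 2198 in TTP-AA, and does not serve as a check of the labels.

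Promoter sequences are shown for 4 genes of the SREBP pathway, chosen as examples. Whether such sequences bear on the values was not tested. RefSeq promoter windows (GRCm38.p6; 250 bases before to 50 after the start) were found for 31 of the 40 genes. The stretches below lie wholly before the start site and are written 5′ to 3′ on the gene's strand, with matches to CCAAT, to the E-box CACGTG and to the sterol response element core TCACNCCAC in capitals, either strand counted, so that ATTGG marks a CCAAT box on the other strand.
Hmgcs1 (chr13:119690164-119690263, plus strand): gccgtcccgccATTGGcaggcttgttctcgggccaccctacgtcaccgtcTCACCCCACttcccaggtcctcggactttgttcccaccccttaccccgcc
Mvd (chr8:122443423-122443522, minus strand): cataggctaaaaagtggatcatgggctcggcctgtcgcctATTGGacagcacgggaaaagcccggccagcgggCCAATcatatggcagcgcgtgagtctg
Hsd17b7 (chr1:169969291-169969390, minus strand): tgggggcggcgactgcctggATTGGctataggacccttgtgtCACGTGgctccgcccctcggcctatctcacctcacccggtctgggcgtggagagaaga
Insig1 (chr5:28071176-28071275, plus strand): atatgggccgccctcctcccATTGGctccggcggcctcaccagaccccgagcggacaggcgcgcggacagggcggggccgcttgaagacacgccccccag

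CCAAT was present in the windows of 12 of the 13 cholesterol synthesis genes that had one, Acat2 being the exception, and in 4 of 5 SREBP and regulator genes, against 41.1% of 27025 mouse genes with a window. Among the fatty acid genes 3 of 7 held it, and among the LXR and efflux genes 1 of 4 (Mylip). The sterol response element core was found in Hmgcs1 and in no other of the 31 genes, with 1.44% of all genes holding it. The E-box was present in 5 of the 31 genes (Hsd17b7, Dhcr7, Insig1, Scap and Abca1), against 8.09% of all genes. Matches to different motifs did not overlap one another in these genes, while in Fasn matches to CCAAT on both strands did. These are matches of letters and not shown binding sites.

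The other sequence feature that the study's design points to is the core of the element that TTP binds, TATTTAT in DNA letters. It was present in the annotated 3′UTR of 10 of the 39 genes with one (25.6%), against 27.4% of 11330 genes of the table, with 1 transcript per gene taken from GENCODE vM21. The sites of Insig1, Insig2 and Npc2 are shown, since these genes feature in the results, with the core in capitals.
Insig1 (chr5:28077225-28077251, plus strand): gtagtaagaaTATTTATccagaattaa
Insig1 (chr5:28077799-28077825, plus strand): ttctcgtaaaTATTTATtttgtaattt
Insig2 (chr1:121304859-121304885, minus strand): gcctgccatgTATTTATgggttaagtc
Insig2 (chr1:121304506-121304532, minus strand): cacactactcTATTTATtattctgtct
Npc2 (chr12:84756243-84756269, minus strand): tcctcgttttTATTTATaccagctaga

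The remaining genes with the core were Srebf1, Acaca, Lpin1, Fasn, Soat1, Mylip and Elovl6, the last with 3 overlapping or adjacent copies. The 3′UTR of Nr1h3, the gene with the largest differences, did not hold it. The median log2 differences of TTP from GFP, TTP-AA from GFP and TTP-AA from TTP were 0.02, 0.10 and 0.05 for the 10 genes with the core. For the other 30, which include Acss2 with no annotated 3′UTR, they were 0.04, 0.04 and -0.02. Over all genes of the table with the core the medians were -0.04, -0.06 and -0.03. Over those that had a 3′UTR without it they were 0.01, 0.02 and 0.01.

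Of the 40 genes, 4 differed by at least 0.5 in any of the 3 comparisons, namely Nr1h3, Npc2, Fads1 and Fads2. Between TTP and GFP, 2 genes were past this size, both higher in TTP, where 5.25% of all 13028 genes were past it in either direction, 1.45% being higher and 3.80% lower. Between TTP-AA and GFP, 1 gene was past it, higher in TTP-AA, against 8.53% of all genes, of which 5.50% were higher and 3.03% lower. Between TTP-AA and TTP, 3 genes were past it, 2 higher and 1 lower in TTP-AA, against 13.5% of all genes, with 9.06% higher and 4.44% lower. At this limit the members' shares rest on 1 to 3 genes. They were near the background for TTP against GFP and below it for both comparisons of TTP-AA. At a limit of 0.25, 17 of 40 genes differed between TTP-AA and TTP beside 38.5% of all genes. The share for TTP-AA against GFP stayed below its background there. At a limit of 1, 1 of 40 differed between TTP-AA and GFP beside 1.48%. The share for TTP-AA against TTP stayed below its background at that limit. The median difference over the 40 genes was 0.02, 0.05 and -0.02 in the order given, beside -0.01, 0.01 and 0.01 over all genes. The comparisons share libraries and are given side by side.

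**Figure D1:**
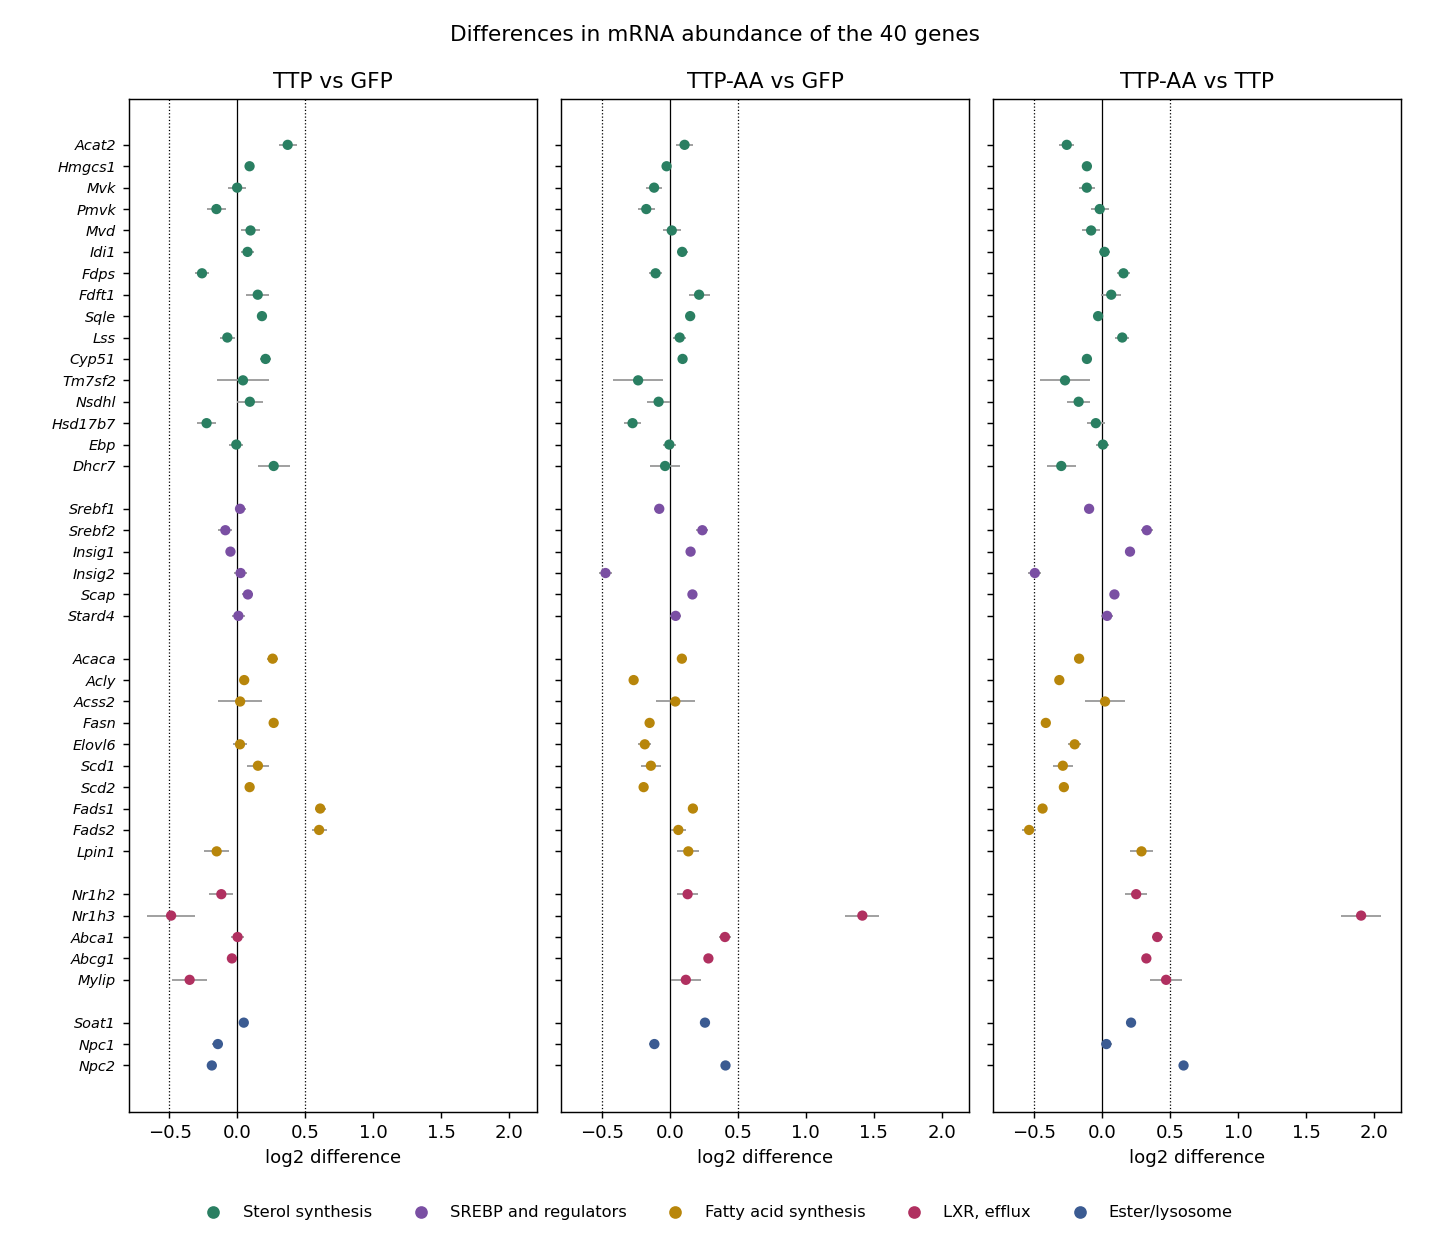
Log2 differences of the 40 genes in the 3 comparisons (horizontal axis; one row per gene, coloured by role); bars give the 95% counting interval and dotted lines mark a difference of 0.5. Nr1h3 stands far to the right in both comparisons of TTP-AA, at 1.42 and 1.90, while the sterol synthesis genes lie between -0.30 and 0.37 throughout.

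None of the 16 cholesterol synthesis genes differed by 0.5 between any groups. Their median differences were 0.08 for TTP against GFP, -0.01 for TTP-AA against GFP and -0.06 for TTP-AA against TTP. Acat2, the cytosolic thiolase at the head of the pathway, had the largest difference of TTP from GFP, 0.37 (95% counting interval 0.30 to 0.43), with 1017, 1213 and 1334 in the GFP libraries and 1316, 1558 and 1729.9 in the TTP libraries. The lowest TTP value lay below the highest GFP value. Of the 50-base stretches of the Acat2 transcript, 45.9% recur in transcripts of other genes, chiefly those of its paralogue Acat3, which makes the Acat2 value uncertain.

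Hmgcs1, which makes HMG-CoA, averaged 4854 in GFP, 5167 in TTP and 4774 in TTP-AA. Mvk, Pmvk and Mvd, the enzymes that turn mevalonate into isopentenyl diphosphate, differed by -0.17 to 0.10 in all comparisons. Sqle, squalene epoxidase, a control point of the pathway, averaged 4953, 5612 and 5493 in GFP, TTP and TTP-AA, a difference of 0.18 and 0.15 from GFP. Cyp51, the lanosterol demethylase, differed by 0.21 and 0.09 from GFP. These values of rate-setting and middle steps moved by at most 1.15-fold from GFP.

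Fdps, which makes farnesyl diphosphate, had the lowest difference of TTP from GFP in the list, -0.26, on chromosome 3, where the median of all genes was -0.20; with each chromosome centred on its own median it was -0.06. Of Fdps, 86.4% of the 50-base stretches also occur in transcripts of other genes, most often of Gm43738, which overlaps it. Idi1 shares 30.5% of its stretches with other transcripts. Fdft1, squalene synthase, has exons that overlap those of Ctsb on the other strand, and 30.7% of its stretches recur in other transcripts, chiefly those of Ctsb. No source states whether the counting used strand, so reads of such pairs cannot be told apart.

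Hsd17b7, a ketosteroid reductase of the later steps, was the one sterol gene whose range over groups (0.27) exceeded its range over replicate numbers (0.07). Its values were 1321, 1319 and 1380.2 in GFP, 1131, 1121 and 1183 in TTP, and 1094, 1089 and 1142 in TTP-AA. The TTP and TTP-AA values thus lay below the GFP values. The differences were -0.23 (-0.30 to -0.16) and -0.27 (-0.33 to -0.21). Of the last steps, Dhcr7, which makes cholesterol from 7-dehydrocholesterol, averaged 377, 454 and 368 in GFP, TTP and TTP-AA, and Ebp, a sterol isomerase, was level with 2127, 2113 and 2121.

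The SREBP genes and their regulators also held no gene past 0.5. Srebf1, which encodes SREBP-1, was 3452, 4039 and 3053 in the GFP libraries, 3504, 4069 and 3105 in TTP, and 3275, 3819 and 2894 in TTP-AA. The groups overlapped throughout, and the differences were 0.02 for TTP and -0.08 for TTP-AA from GFP. On chromosome 11, whose genes had a median of -0.10 in the latter comparison, centring turned the sign of the TTP-AA difference, to 0.02 from GFP and 0.02 from TTP. Srebf2, which encodes SREBP-2, was 2396, 1617 and 2651 in GFP, 2256, 1512 and 2501 in TTP, and 2831, 1905 and 3130.1 in TTP-AA. TTP-AA exceeded TTP by 0.33 (0.28 to 0.37) on the log2 scale, with overlapping libraries.

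The 2 INSIG genes went opposite ways in TTP-AA. Insig1, itself an SREBP target, was 6460.5, 7704 and 9215 in GFP, 6244, 7391 and 8923 in TTP and 7189, 8545 and 10248 in TTP-AA, higher in TTP-AA than in GFP by 0.15 (0.13 to 0.18). Insig2 (chr1:121304353-121332589) was 1816, 2042 and 2753 in GFP, 1849, 2063 and 2807 in TTP and 1310.2, 1468 and 1984 in TTP-AA. The highest TTP-AA library of Insig2 lay above the lowest of both other groups. TTP-AA differed by -0.47 (-0.52 to -0.43) from GFP and -0.496 (-0.54 to -0.45) from TTP, just inside the limit of 0.5. Scap, the escort protein, differed by 0.08, 0.17 and 0.09 in the 3 comparisons, and Stard4, a cytosolic sterol carrier, by 0.01, 0.04 and 0.04.

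Among the fatty acid synthesis genes, the desaturases Fads1 and Fads2 were higher in TTP than in GFP. Fads1 (delta-5 desaturase; chr19:10182888-10196877) was 3191, 2621 and 2654 in GFP, 4873, 3974 and 4061 in TTP and 3593, 2942 and 2987 in TTP-AA. All TTP libraries lay above those of both other groups, which overlapped one another. Fads1 was higher in TTP than in GFP by 0.61 (0.57 to 0.65), which is 1.52-fold, and differed by -0.44 between TTP-AA and TTP. Fads2 (delta-6 desaturase; chr19:10062765-10101746) was 1580.2, 1424 and 1602 in GFP, 2400.2, 2147 and 2438 in TTP and 1652, 1484 and 1674 in TTP-AA. The order of the groups was that of Fads1, with differences of 0.60 (0.55 to 0.66) for TTP from GFP and -0.54 (-0.59 to -0.49) for TTP-AA from TTP.

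Both desaturase genes lie side by side on chromosome 19, and their neighbours differed in the same direction between TTP and GFP. Fen1, next to Fads1, differed by 0.51 between TTP and GFP, Tmem258 by 0.31 and Fads3 by 0.26, while Rab3il1 beyond Fads3 differed by 0.07. The median of the 460 genes of chromosome 19 that passed the minimum was 0.18, and with each chromosome centred on its own median Fads1 fell to 0.43 and Fads2 to 0.42, below the limit. Between TTP-AA and TTP, where Fads2 was past the limit downwards, Fen1 differed by -0.24 and Rab3il1 by -0.07. Fads3, Tmem258 and, beyond Tmem258, Dagla differed upwards in that comparison, by 0.13, 0.04 and 0.17. The part of the chromosome in these values was not tested.

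The other fatty acid genes were all within 0.42 of 0 in every comparison. From GFP to TTP, 9 of the 10 genes of the list differed upwards and 1 downwards, with a median of 0.12, beside 48.5% of all genes upwards. From TTP to TTP-AA, 8 differed downwards, with a median of -0.29, beside 48.8% of all genes downwards and a median of 0.01. Of the 10 genes, 3 lie on chromosome 11 and 4 on chromosome 19, whose medians between TTP-AA and TTP were -0.12 and -0.10. With each chromosome centred on its own median, 7 of the 10 differed upwards from GFP to TTP, Scd1 and Scd2 turning to -0.03 and -0.09, and 8 differed downwards from TTP to TTP-AA with a median of -0.19. Fasn, fatty acid synthase, averaged 11661 in GFP, 14029 in TTP and 10519 in TTP-AA. Acly, which supplies cytosolic acetyl-CoA, averaged 10439, 10802 and 8679, and Scd2, the stearoyl-CoA desaturase with the highest level of the pair, 15502, 16496 and 13563. Elovl6, the elongase of palmitate, differed by -0.20 between TTP-AA and TTP, and Acaca, acetyl-CoA carboxylase, by -0.17. Lpin1, a phosphatidate phosphatase, went the other way, by 0.29. After centring, Elovl6 was at -0.31, Acaca at -0.05, Acly at -0.20, Fasn at -0.29 and Lpin1 at 0.18 in this comparison.

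Acly was the one of these whose TTP-AA libraries (9281, 8808 and 7948) all lay below the GFP libraries (11149, 10615 and 9554). For Fasn the libraries of a group ran from 8693 to 12557 in TTP-AA and from 11549.8 to 16753 in TTP, and the groups overlapped. The Acaca transcript shares 52.6% of its 50-base stretches with other transcripts, chiefly those of Gm5182, and its values are uncertain for that reason.

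LXRα was the member with by far the largest group differences. Nr1h3 (chr2:91184061-91202834) was 224, 234 and 210.2 in the GFP libraries, 160.0, 166 and 150.4 in TTP, and 598, 623 and 561 in TTP-AA. No library of one group overlapped another. Nr1h3 was higher in TTP-AA than in GFP by 1.42 (1.29 to 1.54), which is 2.67-fold, and higher than in TTP by 1.90 (1.76 to 2.05), which is 3.74-fold. TTP lay below GFP by -0.488 (-0.67 to -0.31), just inside the limit, so that the group order was TTP, GFP, TTP-AA.

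Nr1h3 shared none of its 50-base stretches with transcripts of other genes, although the annotated gene Gm13783 overlaps one of its exons on the same strand. Its neighbour Acp2, which starts next to the annotated 5′ end of Nr1h3 on the other strand, differed by -0.43, 0.35 and 0.78 in the 3 comparisons. Beyond Acp2, Ddb2 differed by 0.07, -0.19 and -0.26 and A330069E16Rik by 0.12, -0.21 and -0.33, opposite in direction to Nr1h3. Madd and Spi1 on the other side differed by -0.22 to 0.42. Nr1h2, which encodes LXRβ, showed the same order of the groups at a smaller size, with 774, 778 and 731 in GFP, 714, 712 and 675 in TTP and 849, 849.6 and 800.2 in TTP-AA. Its differences were -0.12, 0.13 and 0.25, and its groups did not overlap.

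**Figure D2:**
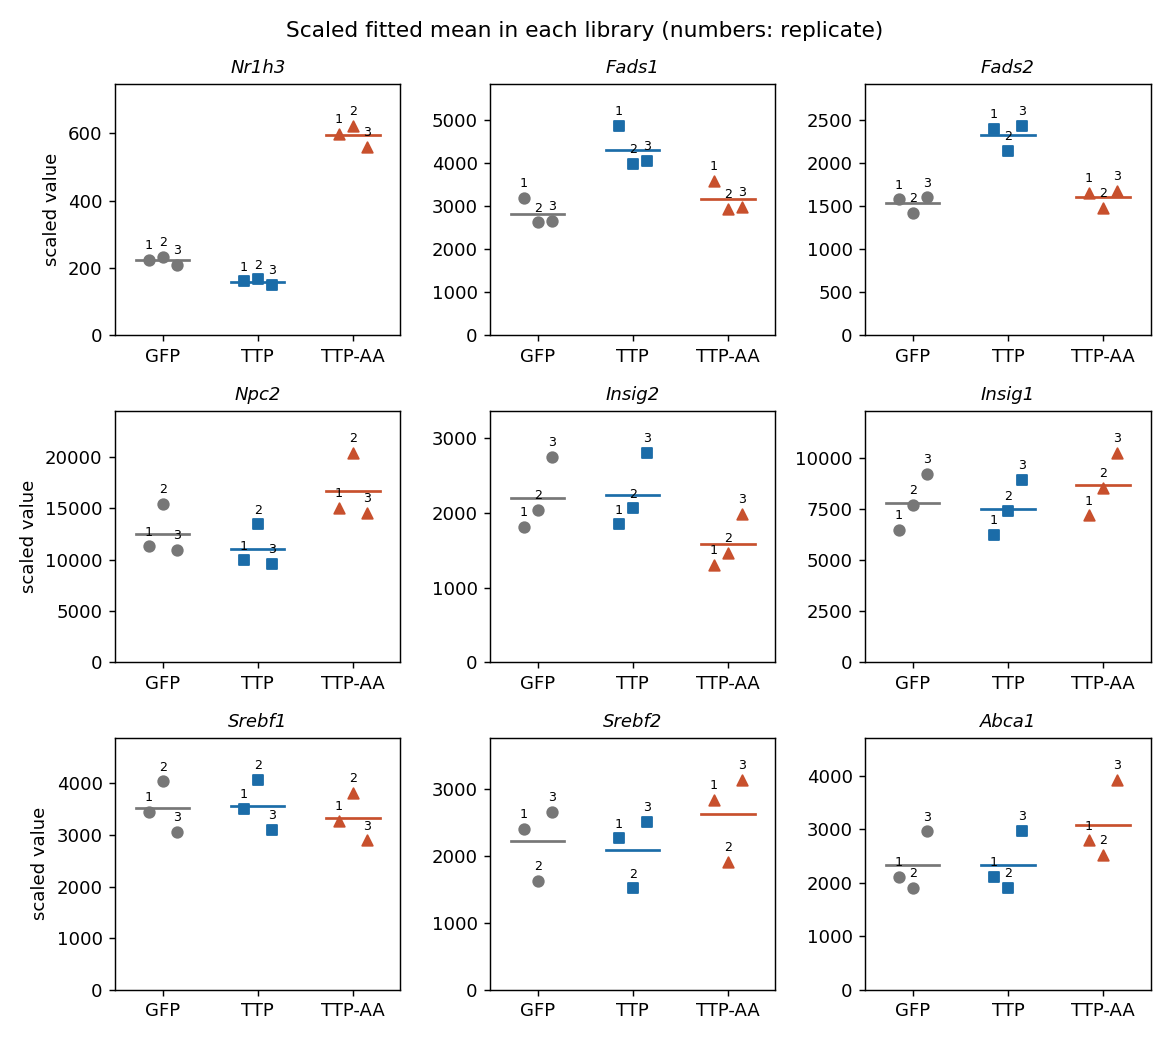
Scaled values of 9 genes in each library (points, with the replicate number beside them; horizontal bars are group means; vertical axes start at 0). The 3 TTP-AA libraries of Nr1h3 sit between 561 and 623, above all others, while for Srebf1 and Insig1 the replicate number spreads the points more than the group does. The pattern of the 3 points is alike in each group by construction of the fitted means.

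The LXR targets in the list were higher in TTP-AA, none by 0.5. Abca1, the pump that loads cholesterol on to apolipoprotein A-I, was 2107, 1909.8 and 2963 in GFP, 2112, 1900.2 and 2975 in TTP, and 2793, 2524 and 3925 in TTP-AA. TTP-AA differed from GFP by 0.41 (0.36 to 0.45) and from TTP by 0.40, within a range of 0.64 over the replicate numbers, of which replicate 3 was the highest. Abcg1, the pump that delivers cholesterol to HDL, was 4806, 5350.0 and 3066 in GFP, 4680.2, 5172 and 2991 in TTP and 5857, 6499 and 3734 in TTP-AA. Its differences were 0.28 (0.25 to 0.32) from GFP and 0.32 from TTP. Mylip differed by -0.35 between TTP and GFP and by 0.47 between TTP-AA and TTP. All 5 genes of the LXR and efflux list thus had their highest mean in TTP-AA, with medians of 0.28 against GFP and 0.40 against TTP, where 6647 and 6664 of 13028 genes were higher.

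Of the 3 genes of esterification and lysosomal export, Npc2, the soluble protein that passes cholesterol to NPC1 in the lysosome, was past the limit. Npc2 (chr12:84754562-84773152) was 11296, 15406 and 10934 in GFP, 9929, 13442 and 9629 in TTP, and 15019.6, 20417 and 14528 in TTP-AA. All TTP-AA libraries lay above all TTP libraries, and the lowest of them lay below the highest GFP library. TTP-AA was higher than TTP by 0.60 (0.58 to 0.62), which is 1.51-fold, and higher than GFP by 0.41. The chromosome 12 medians were 0.11 between TTP-AA and TTP and 0.16 between TTP-AA and GFP, and after centring Npc2 was at 0.49 and 0.25.

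Soat1, the enzyme that esterifies cholesterol for storage, averaged 14536, 15009.7 and 17384 in GFP, TTP and TTP-AA, and its TTP-AA libraries all lay above the GFP libraries. Npc1, the membrane protein of the same export step as NPC2, differed by -0.14, -0.11 and 0.03. The 2 partners of lysosomal export thus had unlike values in TTP-AA.

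Set by role, the medians of fatty acid synthesis and of LXR and efflux differed in direction between TTP-AA and TTP. The medians were -0.06 for sterol synthesis, 0.06 for SREBP and its regulators, -0.29 for fatty acid synthesis, 0.40 for LXR and efflux, and 0.21 for esterification and lysosomal export. The sterol synthesis and SREBP medians were within 0.1 of that of all genes, 0.01. Since RNA was pooled from whole cultures, a larger share of cells with a transcript and more transcript per cell cannot be told apart. Markers of the cells moved as well. The 8 symbols of macrophage markers looked for stand for 7 genes, as F4/80 has an older symbol, Emr1, and a newer one. All 7 genes were found and passed the minimum. TTP-AA exceeded TTP in all 7, by 0.11 to 1.45, beside 51.2% of all genes, the largest being Emr1. The counting interval of 1 of them, Mertk with a mean of 18.5, held 0 (-0.25 to 0.81). Of the 16 markers of adipocytes, hepatocytes, fibroblasts and lymphocytes, 9 were found and none passed the minimum. The highest was Cd3d with a mean of 5.23, and the 9 together summed to 7.71 to 8.69 per library in GFP, 7.21 to 8.17 in TTP and 8.08 to 9.14 in TTP-AA. The part of these shifts in the lipid gene values was not tested.

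The differences between replicate numbers were larger than those between groups for most of these genes. The authors fitted library date beside condition, and the table holds 1 term per replicate number that is common to all 3 groups. For the sterol synthesis genes, replicate 3 was above replicate 1 in 15 of 16 genes, Ebp being the exception, with a median of 0.38, where 48.0% of all genes were above. Replicate 2 was above replicate 1 in 12 of 16, with a median of 0.17, against 52.3% of all genes. The second of these depended on the scaling: with libraries scaled by their totals it was 8 of 16 with a median of 0.08, against 40.2% of all genes with a median of -0.07, while replicate 3 remained above replicate 1 in 15 genes, with a median of 0.34. Hmgcs1 (0.76) and Idi1 (0.75) had the largest terms. In the GFP libraries Hmgcs1 was 4012, 3745 and 6806, and Idi1 2087, 2216 and 3504, in the order of replicates 1 to 3, so that replicate 3 stood well above the other libraries.

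The regulators Insig1 and Insig2 had terms of 0.51 and 0.60 for replicate 3 against 1, Srebf2 0.15 and Srebf1 -0.18. Outside the 40 genes, Msmo1, a sterol methyl oxidase of the same pathway, had a term of 0.46. Of the 15 further SREBP pathway genes that passed the minimum, 10 were above 0. The fatty acid genes differed from this, with 3 of 10 above 0 and a median of -0.24. For the LXR and efflux genes 1 of 5, Abca1 with 0.49, was above 0, while Abcg1 and Mylip were both at -0.65.

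**Figure D3:**
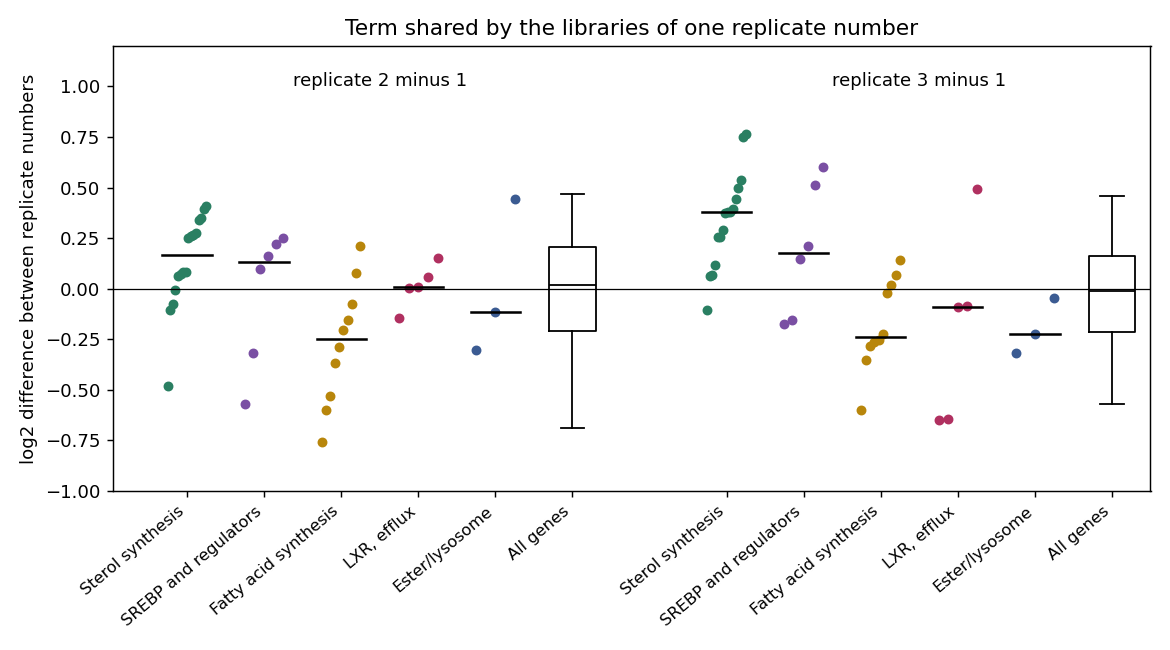
Log2 difference of replicate 2 and of replicate 3 from replicate 1, averaged over the 3 groups, for the genes of each role (points; black bars are medians) and for all 13028 genes (box, quartiles; whiskers, 5th to 95th percentile). Of the 16 sterol synthesis genes, 15 lie above 0 for replicate 3, with a median of 0.38 over the list, and the fatty acid genes lie mostly below 0.

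The range over the 3 replicate numbers exceeded the range over the 3 groups in 32 of the 40 genes, against 60.2% of all genes. This held for 15 of the 16 sterol synthesis genes, the exception being Hsd17b7, and for all 6 SREBP and regulator genes. It held for 7 of 10 fatty acid genes, 3 of 5 LXR and efflux genes and 1 of the 3 remaining genes. For Nr1h3 the order was reversed, with a range of 0.15 over replicate numbers and 1.90 over groups, and Fads1 and Fads2 had 0.29 and 0.18 beside 0.61 and 0.60. Replicate number goes with library date in the authors' model, and growth, handling and sequencing of a replicate cannot be told apart.

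Levels of the 40 genes, compared as the scaled value per kb of transcript averaged over the 9 libraries, covered a range from 99.7 for Tm7sf2 to 4062 for Npc2. Npc2 was followed by Insig1 (2963), Scd2 (2784), Acly (2253), Sqle (1941) and Soat1 (1869). Scd1, the other stearoyl-CoA desaturase, was at 172 per kb. Insig1 was above Insig2 (745), and Srebf1 (807) above Srebf2 (455). The receptors were low, with 166 for Nr1h3 and 383 for Nr1h2. The 2 receptors were closest in TTP-AA, with 304 per kb for Nr1h3 and 417 for Nr1h2, beside 81.2 and 350.5 in TTP.

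**Figure D4:**
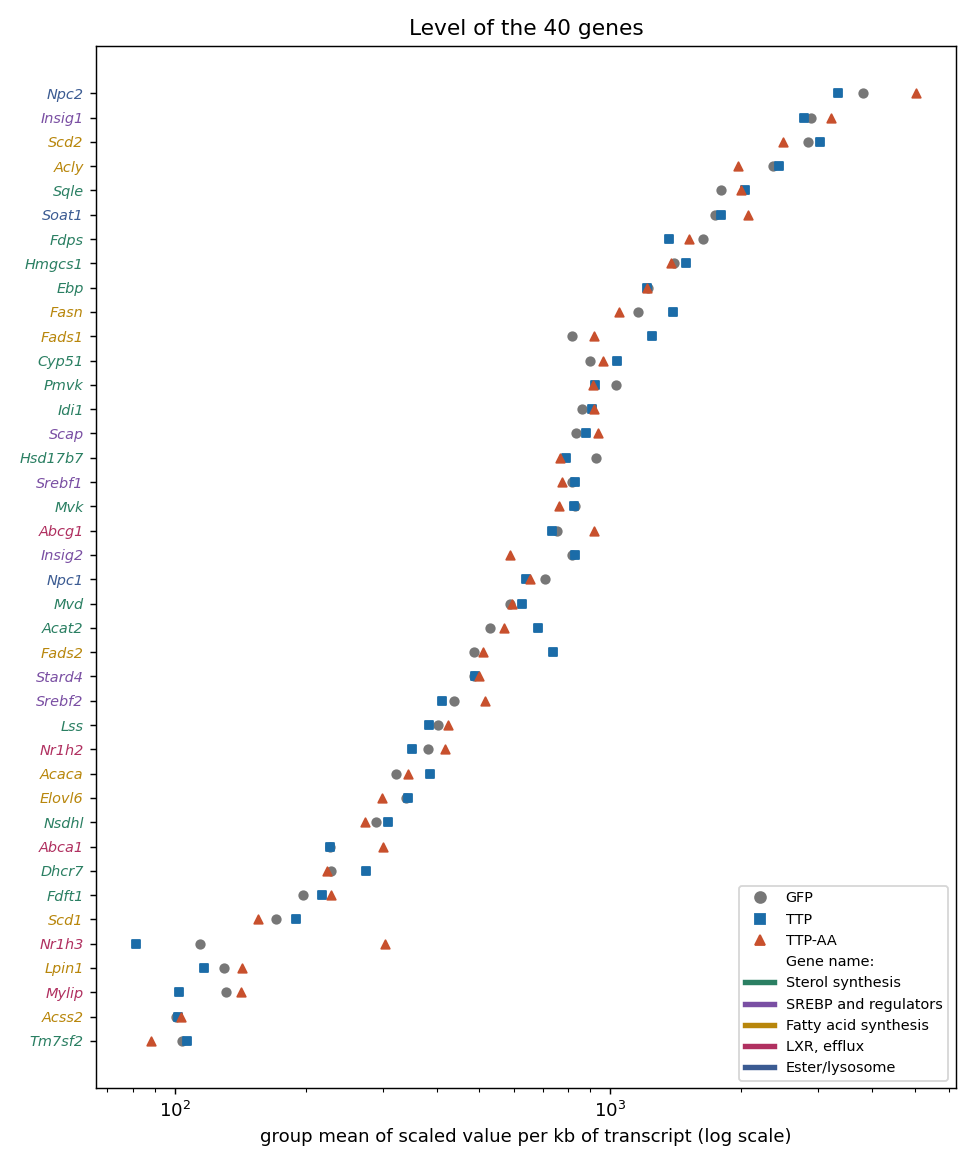
Group means of the scaled value per kb of transcript for the 40 genes (horizontal axis, log scale; one row per gene in order of the mean over all libraries; gene names coloured by role). For most genes the 3 group symbols lie close together, whereas Nr1h3 runs from 81.2 in TTP to 304 in TTP-AA.

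Other genes of the same pathways gave the setting. They were listed by function and not by their values here, although with earlier results of these data known. Of 17 further genes of the SREBP pathway, 15 passed the minimum. Only 1 of these, Gpam, the first enzyme of glycerolipid synthesis, was past 0.5, at 0.56 for TTP against GFP and -0.89 for TTP-AA against TTP. Of all 13028 genes, 5.25% were past 0.5 between TTP and GFP, 8.53% between TTP-AA and GFP and 13.5% between TTP-AA and TTP. The values of Gpam were 871, 779.8 and 699 in GFP, 1285, 1142 and 1034 in TTP and 692, 618 and 555 in TTP-AA. Gpam lies on chromosome 19, as Fads1 and Fads2 do, and with the chromosome centred it was at 0.38 for TTP against GFP, below the limit, and at -0.79 for TTP-AA against TTP. Msmo1 differed by 0.17, 0.26 and 0.09.

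Of 14 further LXR targets and partners, 13 passed the minimum, of which 3 were past 0.5 downwards between TTP and GFP, 1 upwards between TTP-AA and GFP, and 4 upwards and 1 downwards between TTP-AA and TTP. Of all 13028 genes, 3.80% were past it downwards in the first comparison and 5.50% upwards in the second. In the third, 9.06% were past it upwards and 4.44% downwards. Smpdl3a, a phosphodiesterase induced by LXR, was 1399, 1574 and 1140.0 in GFP, 334, 373 and 272 in TTP, and 3341, 3746 and 2720.1 in TTP-AA, with no overlap between groups. Its differences were -2.07, 1.25 and 3.32. Ch25h, which makes the oxysterol 25-hydroxycholesterol, differed by -1.13, 0.35 and 1.47, with a replicate-number term of 1.56 for replicate 3 against 1. Apoc2 and Pltp, a lipase cofactor and a phospholipid carrier of lipoproteins, differed by 0.88 and 0.79 between TTP-AA and TTP. Lpl, lipoprotein lipase, went the other way, at -0.54, and Lpcat3 and Arl4c of the same list differed by -0.03 and 0.19. The list median was 0.30 between TTP-AA and TTP, beside 0.01 for all genes. The deposited mean of measured counts, divided by the mean of fitted values and set to 1 at the median gene, was 1.07 for Smpdl3a, 1.10 for Pltp and 1.10 for Ch25h, above the 95th percentile of all genes, 1.06, so the fitted values lie farther from the measured mean for these genes than for most.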

How the data were processed

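Per the labels, RNA was depleted of rRNA with Ribo-Zero Gold beads, made into libraries with the ARTseq kit and read as single-end 50-base reads. The authors trimmed with Trim Galore, aligned to GRCm38 with TopHat2 2.0.12, counted with HTSeq and fitted DESeq2 1.6.3 with library date and condition; use of strand was not stated. The deposited signal, named as normalized counts, proved to be fitted means: log2 values had 4 nonzero singular values where 8 are free, and ratios of same-numbered libraries deviated by at most 2.6e-14. Fold changes of low genes are near 0 (SD 0.0339 for means under 1, 0.393 over 100). The deposited comparison tables also hold the authors' log2 fold changes, standard errors, test statistics and p-values, which were not used; only their mean signal over all libraries was.

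The table had 25504 rows; the first row of each of 10 repeated identifiers was kept. Values were scaled by the median of ratios over genes of at least 10 in every library, and differences are means of log2 ratios over replicates, with no pseudocount. Intervals are 1.96 Poisson standard errors of group sums. Scripts (Python 3.11.15, numpy 2.4.6, pandas 2.3.3) were tested on simulated data. Annotation was GENCODE vM21 on GRCm38, taking the transcript with the longest coding sequence; promoters were RefSeq's. All 40 genes could be named; library values were due to genes past 0.5 and to Srebf1, Srebf2, Insig1, Nr1h3, Abca1 and Abcg1, while Acat2, Hsd17b7, Insig2, Nr1h2, Acly, Fasn, Hmgcs1 and Idi1 were added after their values were seen. Genes of the further lists were to be named where past 0.5 in any comparison, but Msmo1, Lpcat3, Arl4c, Plin2, Dgat1, Hadhb and Cpt1a were named below it. Members and lists were chosen with earlier results of these data known. Alternatives were other scalings, filters, a pseudocount, other limits, leaving out replicates, and chromosome centring. Some further genes of the pathway are not reported here.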

Additional observations from a re-analysis of the deposited data

How the results depend on the processing

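The number of genes past the limit depended on the limit: at 0.25 it was 9, 8 and 17 of 40 for TTP against GFP, TTP-AA against GFP and TTP-AA against TTP (20.9%, 30.4% and 38.5% of all genes), and at 1 it was 0, 1 and 1, Nr1h3 being the gene in both. With each chromosome centred on its median, the number for TTP against GFP fell from 2 to 1, because Fads1 (0.43) and Fads2 (0.42) dropped below 0.5 and Nr1h3 passed it; Fads2 then stood at -0.05 for TTP-AA against GFP and -0.44 against TTP, and the 2 genes past the limit between TTP-AA and TTP were Nr1h3 and Insig2. Total or upper quartile scaling, no filter, a minimum mean of 50, a pseudocount of 1, and asking that the counting interval leave out 0 changed no count of genes past the limit by over 1.5 times and moved no list median of the group differences by more than the spread of the list between replicate numbers. Counts of the replicate-number term did change: with total scaling, replicate 2 was above replicate 1 in 8 instead of 12 of 16 sterol synthesis genes, 1 instead of 4 of 5 LXR and efflux genes and 1 instead of 2 of 10 fatty acid genes. Centring of single genes outside those named by rule, Gpam among them, was added after seeing the data. Leaving out replicate 1, 2 or 3 gave the same differences by construction of the fitted means and says nothing about stability. No paired analysis was possible because the values are fitted means that already hold a term per replicate number and carry no scatter to fit. Depth did not limit these genes: the widest counting interval belonged to Tm7sf2, with a mean of 147.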

Other observations

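Genes of lipid storage and breakdown gave values that the comparisons above do not cover. Of 17 such genes, 15 passed the minimum mean. Pparg, a nuclear receptor that promotes lipid uptake and storage in macrophages, was 31.7, 28.4 and 39.2 in the GFP libraries, 19.8, 17.6 and 24.5 in TTP, and 155, 139 and 192 in TTP-AA. No group overlapped another, and the log2 differences were -0.68 for TTP against GFP, 2.29 for TTP-AA against GFP and 2.97 for TTP-AA against TTP. Its measured mean was 1.20 times its fitted mean, relative to the median gene, where the 95th percentile of all genes was 1.06, so its fitted values lie farther from the measured mean than those of most genes. Dgat2, which makes triglyceride, differed by 0.21, 0.74 and 0.54, whereas Dgat1, which catalyses the same step, differed by 0.21, -0.15 and -0.36.

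Plin2, the coat protein of lipid droplets, averaged 17418 in GFP, 18149 in TTP and 20277 in TTP-AA. Of the genes of fatty acid oxidation, Acadm, a medium-chain acyl-CoA dehydrogenase, differed by -0.56 between TTP-AA and GFP and by -0.49 between TTP-AA and TTP. With the chromosome centred these were -0.46, below the limit, and -0.60, past it. Hadhb, a subunit of the trifunctional protein, differed by -0.44 between TTP-AA and TTP, and Cpt1a, the carnitine transferase of import, by 0.29. Over the list, 1, 3 and 2 of 15 genes were past 0.5 for TTP against GFP, TTP-AA against GFP and TTP-AA against TTP, beside 5.25%, 8.53% and 13.5% of all genes, and the medians were 0.03, -0.10 and 0.07. The order of the groups in Pparg, with TTP lowest and TTP-AA highest, was that of Nr1h3.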
